A study of Rattus norvegicus with 6 samples.

Results

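Uroguanylin and cyclic GMP signalling are described here through 9 rat genes: the ligands Guca2b and Guca2a, the receptors Gucy2c, Npr1, Npr2 and Npr3, the kinases Prkg1 and Prkg2, and the phosphodiesterase Pde5a. The members were taken as all non-control probes whose accession maps to one of these symbols, which gave 14 of the 61526 probes used and 9 of 15277 named genes. Guca2b was singled out for its difference between these groups, higher on every array of treated animals, so the comparison between the groups is given for all members as a description, with no test. The RNA came from the renal cortex, the outer kidney, of male Sprague-Dawley (Crl:CD(SD)) rats bought at 5 weeks of age. In the o-anthranilic acid group 3 rats received 1000 mg/kg/day of the compound, and in the vehicle group 3 rats received corn oil, both for 4 weeks. All 6 animals were kept on the same basal diet, and no genetic change is recorded for either group. The compound is aminobenzoic acid with both groups on neighbouring ring carbons, and the kynurenine pathway makes it in the body. Each animal had 1 single-colour (Cy3) Agilent array, and the design text calls the 3 samples of a group biological replicates.

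Of all non-control probes, 63.6% to 68.2% were well above background on the o-anthranilic acid arrays and 65.9% to 69.3% on the vehicle arrays. After dim probes were left out, 30709 features were tested, of which limma with Benjamini-Hochberg adjustment called 0 (0%), the lowest adjusted p being 0.0786. Without adjustment 2555 features (8.32%) had a p under 0.05, of which 1082 (3.52% of all) were higher and 1473 (4.8%) lower in o-anthranilic acid animals. Other settings of the fit called between 0 and 5 features. The o-anthranilic acid arrays lay on 2 slides: replicate 2 was alone on slide 2, and the other arrays of both groups shared slide 1. On slide 1 the vehicle arrays were in row 1 and the o-anthranilic acid arrays in row 2, so row and group cannot be told apart there. The tissue label was checked against marker genes of kidney cell types. All 4 podocyte markers and all 4 markers of the early proximal tubule were well above background, and so were 4 of 5 markers of inner medulla and papilla. Since markers of both regions passed, this check does not tell cortex from medulla.

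Cyclic GMP is made by guanylate cyclases, which are either receptors in the cell membrane or soluble enzymes activated by nitric oxide, and it acts through protein kinases, gated channels and phosphodiesterases. Uroguanylin and guanylin are small peptides made mainly in the intestine, where they activate guanylate cyclase C (Gucy2c) and drive chloride and water secretion. In the kidney uroguanylin increases the excretion of salt, as do the natriuretic peptides of the heart, which act through the receptor Npr1. Uroguanylin has therefore been studied as a link between the gut and the kidney.

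Guca2b and Guca2a are next to each other on rat chromosome 5, on opposite strands and with their 3' ends facing each other. The 250 bases before each annotated start are shown because these neighbouring genes of one peptide family differed in the comparison described below. Guca2b lies on the minus strand (GRCr8, chr5:138534211-138534460 for the window), and Guca2a on the plus strand (GRCr8, chr5:138522196-138522445). The sequences are from RefSeq, 5' to 3' in the direction of transcription. Capitals mark TATAA, the TATA box core, in Guca2b, and TTATC, the GATA core read on the opposite strand, in Guca2a.
Guca2b: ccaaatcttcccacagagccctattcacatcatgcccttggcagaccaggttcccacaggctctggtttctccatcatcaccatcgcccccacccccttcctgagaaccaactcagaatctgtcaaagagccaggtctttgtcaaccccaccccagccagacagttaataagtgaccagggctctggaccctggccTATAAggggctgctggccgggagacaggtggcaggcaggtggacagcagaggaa
Guca2a: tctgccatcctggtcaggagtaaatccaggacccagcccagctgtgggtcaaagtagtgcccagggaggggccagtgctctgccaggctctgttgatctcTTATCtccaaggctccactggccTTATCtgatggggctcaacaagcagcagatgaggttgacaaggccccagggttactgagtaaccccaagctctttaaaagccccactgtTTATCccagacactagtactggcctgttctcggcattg
TATAA began 54 bases before the start of Guca2b and was not found in the Guca2a window on either strand. Only these exact letters were searched. Variant forms of a TATA box, such as the stretch tttaaaa seen in the Guca2a window, were not counted, so Guca2a is not shown to lack one. TTATC began 150, 127 and 38 bases before the start of Guca2a and was not found in the Guca2b window. Over the 33469 windows of the same length in the table, read on both strands, TATAA was present in 24% and TTATC in 23.5%. The antioxidant response core TGACNNNGC, present in 10.1% of windows, had 1 match in Guca2a and none in Guca2b. The xenobiotic response core GCGTG, present in 25.9%, was in neither window. None of these motifs overlapped another in the windows shown. These matches describe letters in a window and are not binding sites.

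The transcript of uroguanylin, Guca2b (NM_022284), was more abundant in the renal cortex of all 3 o-anthranilic acid animals than in any vehicle animal, while its neighbour guanylin was not. The values are log2 signals relative to the 75th percentile of each array, a scale on which 0 is the level that 75% of probes do not exceed. Probe A_43_P15387 of Guca2b stood at 1.53, 2.00 and 1.43 in o-anthranilic acid animals, against -0.28, -0.15 and -0.16 in vehicle animals. The lowest o-anthranilic acid array was thus 1.59 above the highest vehicle array. The mean was 1.65 ± 0.30 in o-anthranilic acid animals and -0.20 ± 0.07 in vehicle animals (SD, n = 3 each), which makes a log2 fold change of 1.85 ± 0.16 (SE) and a ratio of 3.61. As background-subtracted brightness, this probe read 2692, 3920 and 2636 on the o-anthranilic acid arrays and 760, 907.5 and 778.5 on the vehicle arrays.

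The other Guca2b probe, A_64_P075992, gave the same picture. It stood at 0.84, 1.32 and 0.73 in o-anthranilic acid animals, against -0.94, -0.71 and -0.70 in vehicle animals, with a log2 fold change of 1.74 ± 0.18 (SE). Across the 6 arrays the first probe read 0.53 to 0.70 above the other, so the fold changes of the probes differed by 0.11. In both probes o-anthranilic acid replicate 2, the array alone on its slide, was the highest. Within slide 1, without that array, the log2 fold change of A_43_P15387 was 1.68. Leaving out any 1 array kept it between 1.68 and 1.96. Of all 30709 tested features 28, of which 13 were named genes, had a log2 fold change above that of Guca2b. In the same direction, higher in o-anthranilic acid animals, 2 features had a wider gap between the groups, and in either direction 56 features had a log2 fold change of larger size.

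Guanylin, Guca2a (NM_013118), the other peptide that activates guanylate cyclase C, was measured by 2 probes that differed by at most 0.07 on any array. Probe A_43_P11723 stood at 2.39, 1.64 and 2.39 in o-anthranilic acid animals, against 2.21, 2.29 and 2.56 in vehicle animals. The groups overlapped, with o-anthranilic acid replicate 2 the lowest of the 6 arrays and the remaining arrays within the range of vehicle. The mean was 2.14 ± 0.43 in o-anthranilic acid animals and 2.35 ± 0.18 in vehicle animals (SD, n = 3 each), a log2 fold change of -0.21 ± 0.24 (SE). Without replicate 2 of the o-anthranilic acid group it was 0.04. That array therefore had the highest Guca2b and the lowest Guca2a value. Relative to the vehicle means, Guca2b was 1.73, 2.20 and 1.63 higher in o-anthranilic acid replicates 1, 2 and 3, and Guca2a stood at 0.04, -0.71 and 0.03.

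**Figure D1:**
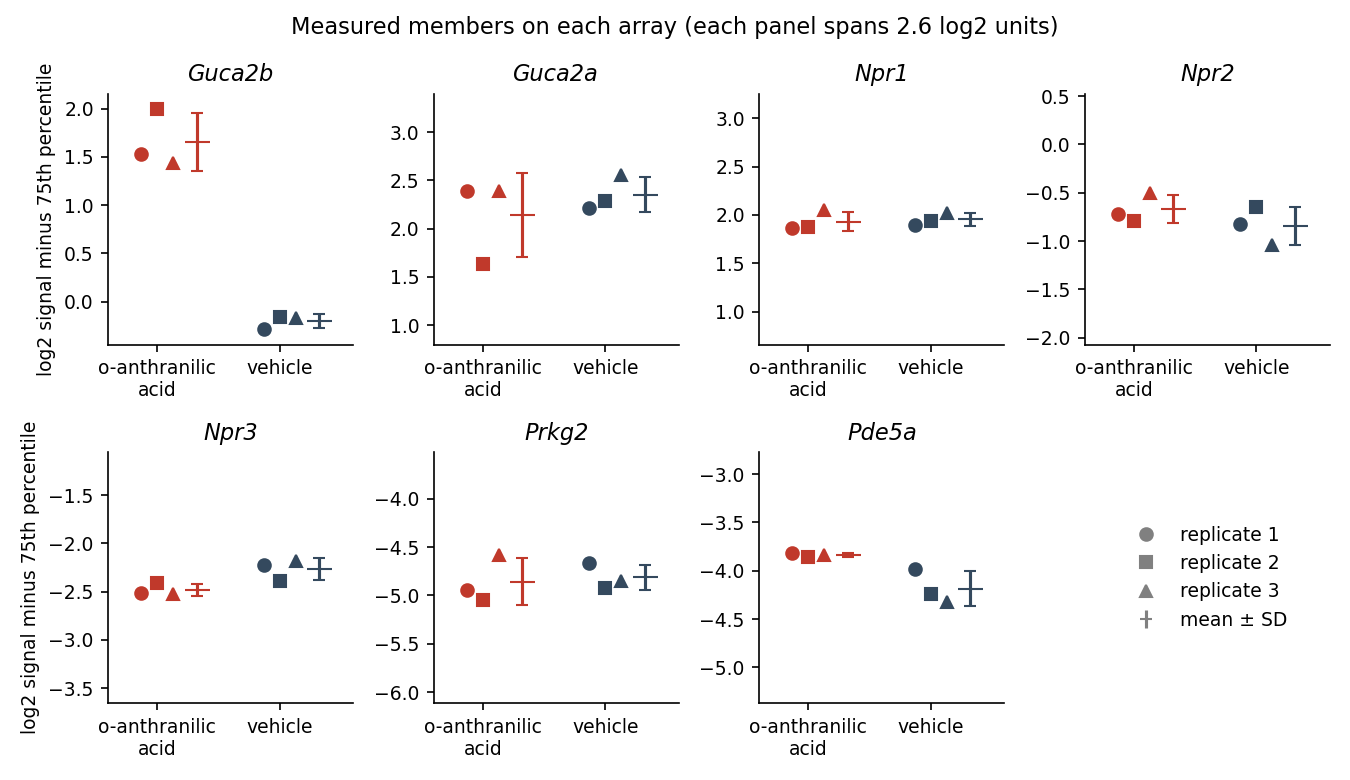
Log2 signal relative to the array's 75th percentile for the 7 members well above background, 1 panel per gene, with o-anthranilic acid arrays in red on the left and vehicle arrays in dark blue on the right. Points are single arrays, with the symbol giving the replicate, and bars are the mean ± SD. Every panel spans the same number of log2 units, and Guca2b has the widest separation of the groups, at 1.43 to 2.00 against -0.28 to -0.15.

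The receptor of both peptides was not measurable in this tissue with these arrays. Neither probe of Gucy2c (NM_013170), guanylate cyclase C, was well above background on any of the 6 arrays. Their brightness was 3.98 to 6.40 on the o-anthranilic acid arrays and 3.45 to 4.65 on the vehicle arrays, and no fold change is given. This bounds the signal of these 2 probes and does not show that the receptor is absent.

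The natriuretic peptide receptors gave measurable signals. Npr1 (NM_012613), the receptor for the atrial and B-type peptides, stood at 1.87, 1.88 and 2.05 in o-anthranilic acid animals and 1.90, 1.94 and 2.03 in vehicle animals. The groups overlapped, and the log2 fold change was -0.02 ± 0.10 (SE), with a 95% interval from -0.26 to 0.21. Npr2 (NM_053838), the receptor for the C-type peptide, stood at -0.72, -0.79 and -0.50 in o-anthranilic acid animals and -0.82, -0.65 and -1.04 in vehicle animals. These groups overlapped too, with vehicle replicate 3 the lowest, and the log2 fold change was 0.17 ± 0.14 (SE), with a 95% interval from -0.18 to 0.52.

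Npr3 (NM_012868), the clearance receptor, which takes up natriuretic peptides and has no cyclase domain, was lower on all 3 o-anthranilic acid arrays with both of its probes. Probe A_64_P036616 stood at -2.52, -2.41 and -2.53 in o-anthranilic acid animals, against -2.23, -2.39 and -2.18 in vehicle animals. The groups were separated by 0.02, with vehicle replicate 2 next to o-anthranilic acid replicate 2. Probe A_44_P552517 stood at -2.85, -2.93 and -2.81 in o-anthranilic acid animals, against -2.42, -2.61 and -2.25 in vehicle animals, and separated the groups by 0.20. The log2 fold changes were -0.22 ± 0.10 and -0.44 ± 0.12 (SE), so the size of the difference depended on the probe.

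Of the kinases that cyclic GMP activates, only type II was measurable. The probes of Prkg1 (NM_001105731), the kinase of smooth muscle and platelets, were not well above background on any array, with a brightness of 6.73 to 14.87 on the o-anthranilic acid arrays and 3.89 to 12.86 on the vehicle arrays. Prkg2 (NM_013012), a membrane-bound kinase that in the intestine acts below guanylate cyclase C, stood at -4.95, -5.05 and -4.58 in o-anthranilic acid animals and -4.67, -4.92 and -4.85 in vehicle animals. The groups overlapped, and the log2 fold change was -0.05 ± 0.15 (SE), with a 95% interval from -0.43 to 0.33. The signal of Prkg2 was dim, between 29.75 and 40.66 units of brightness on the o-anthranilic acid arrays and 30.23 and 36.4 on the vehicle arrays.

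Pde5a (NM_133584), which breaks down cyclic GMP and is the target of sildenafil, was slightly higher on all o-anthranilic acid arrays. It stood at -3.82, -3.86 and -3.83 in o-anthranilic acid animals, against -3.99, -4.24 and -4.33 in vehicle animals. The lowest o-anthranilic acid array was 0.13 above the highest vehicle array, vehicle replicate 1. The log2 fold change was 0.35 ± 0.12 (SE), a ratio of 1.27, and 0.19 after normexp background correction, which bears on dim probes such as this one.

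Of the 9 genes, 7 were well above background, all of them on all 6 arrays, and 2 were below it. The groups did not overlap for Guca2b and Pde5a, higher in o-anthranilic acid animals, and for Npr3, lower. Over all tested features the groups did not overlap for 6.51% in the higher and 8.13% in the lower direction, or 14.6% in all. The members were chosen from this comparison, so nothing is read from their count. Fewer cells of a type and less RNA per cell cannot be told apart in such bulk samples.

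**Figure D2:**
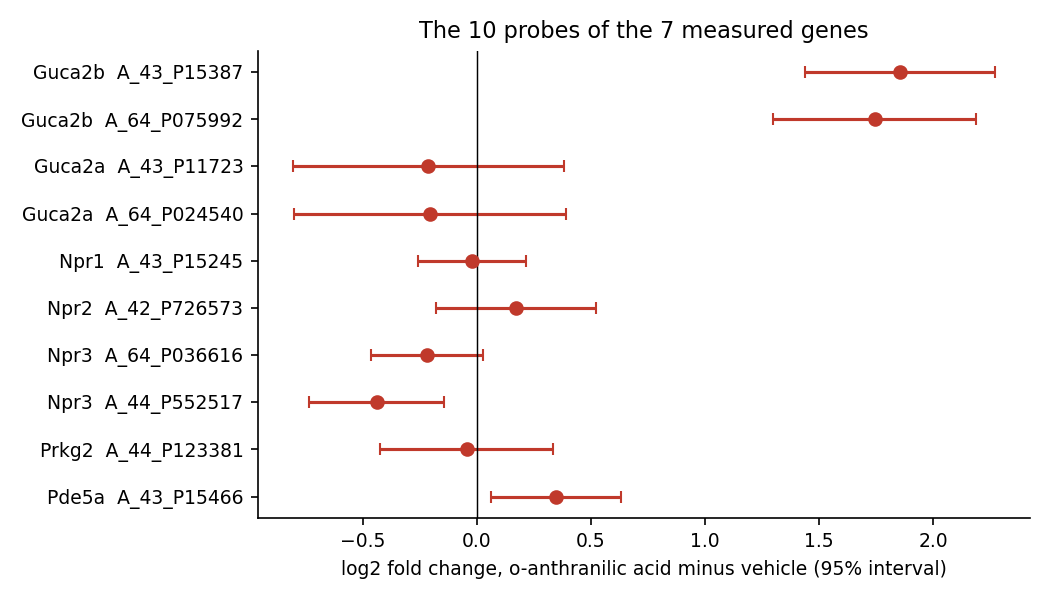
Log2 fold change of o-anthranilic acid over vehicle for each of the 10 probes of the 7 measured genes, with its 95% interval on the horizontal axis. The 4 probes of Gucy2c and Prkg1, which were not well above background, are not drawn. The Guca2b probes stand at 1.85 and 1.74, and the other measured probes lie between -0.44 and 0.35.

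Other genes of cyclic GMP synthesis, breakdown and action, in lists chosen by role, were compared to show whether they moved with Guca2b. Of 70 genes, 66 had a named probe and 53 were tested. limma with Benjamini-Hochberg adjustment over all features called 0 of the 53, 0 higher and 0 lower, against 0% of all features. At an unadjusted p under 0.05 there were 3, of which 2, Abcc4 among them, were higher (3.52% of all features were) and 1, Gucy1a1, was lower (4.8% were). The median log2 fold change was -0.0137, beside -0.00508 for all features. The groups did not overlap for 7 of them, 3 higher, with Itpr1 and Abcc4 among them, and 4 lower, which were Nppa, Gucy1a1, Atp1b1 and Slc26a4, against 14.6% of all features. Itpr1, Atp1b1 and Slc26a4 were picked for naming after their values were seen, and other probes of Itpr1 stood between -0.02 and 0.07.

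Among the natriuretic peptides and the proteases that process or degrade them, 4 of 7 were tested and none was called, with a median of -0.04. Nppa, the atrial peptide, had a log2 fold change of -0.19 ± 0.09 (SE, limma adjusted p 0.65), while Nppb, Nppc and Corin were not well above background. The Nppa signal was dim, with means of -4.43 in o-anthranilic acid and -4.24 in vehicle animals. Mme, neprilysin, a brush-border peptidase that degrades natriuretic peptides, stood at 0.27 ± 0.42. Among other guanylate cyclases 5 of 8 were tested, with a median of -0.09 and 0 calls. Gucy1a1, the alpha subunit of the soluble cyclase, stood at 0.15, 0.35 and 0.14 in o-anthranilic acid animals, against 0.55, 0.62 and 0.68 in vehicle animals. All o-anthranilic acid arrays were lower, with a log2 fold change of -0.40 ± 0.09 (SE) and a limma adjusted p of 0.456. Its partner Gucy1b1, the beta subunit, had a log2 fold change of 0.12 ± 0.10 (limma adjusted p 0.779).

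Gucy1b2, another soluble cyclase subunit, stood at 1.42, 2.13 and 0.47 in o-anthranilic acid animals, against 1.27, -0.77 and 0.40 in vehicle animals. Its log2 fold change of 1.04 ± 0.62 (SE) had a limma adjusted p of 0.693, and the groups overlapped. Cftr, the chloride channel that cyclic GMP kinases open in the intestine, stood at -2.19, -2.33 and -3.74 in o-anthranilic acid animals against -2.97, -4.14 and -5.01 in vehicle animals, with a log2 fold change of 1.29 ± 0.63 and a limma adjusted p of 0.648. In both genes vehicle replicate 1 was the highest vehicle array and o-anthranilic acid replicate 3 the lowest of its group. Slc7a13, a transporter of the straight proximal tubule, shared this highest vehicle and lowest o-anthranilic acid array, and was picked for naming after its values were seen. It stood at 6.90, 6.78 and 5.46 in o-anthranilic acid animals and 6.35, 4.41 and 4.83 in vehicle animals. Its lowest vehicle array was replicate 2, as in Gucy1b2, whereas that of Cftr was replicate 3. Of the other markers listed for that segment, Slc22a7 had the same highest vehicle and lowest o-anthranilic acid array. Slc5a1 and Acsm3 did not, with log2 fold changes of -0.02 ± 0.16 and 0.17 ± 0.63 (SE). In Acsm3 vehicle replicate 1 was the lowest vehicle array. The part of that segment in the Gucy1b2 and Cftr results was not tested. The log2 fold change without 1 array ranged from 0.51 to 1.53 for Gucy1b2 and from 0.80 to 1.82 for Cftr. The lowest value was that without vehicle replicate 2 for Gucy1b2 and that without vehicle replicate 3 for Cftr. Within slide 1 Gucy1b2 stood at 0.65, and Cftr stood at 0.73 after normexp background correction.

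Nitric oxide synthesis had 4 of 5 genes tested, 0 calls and a median of -0.05. Nos3, the endothelial synthase, stood at 0.15 ± 0.14 and Nos2, the inducible one, at -0.08 ± 0.10 (SE), and Nos1 was not well above background. In the list of other cyclic GMP phosphodiesterases and their subunits, 9 of 12 were tested, 0 were called and the median was 0.01. Pde3b had the lowest log2 fold change, -0.29 ± 0.34, and Pde10a the highest, 0.20 ± 0.12, although another probe of Pde10a stood at -0.19. Pde1a and Pde9a stood at 0.02 ± 0.12 and 0.13 ± 0.16. The Pde3b value came from o-anthranilic acid replicate 2, at -2.85 against -1.75 and -1.57 on the other o-anthranilic acid arrays.

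Substrates and partners of the kinases had 11 of 11 genes tested, 0 calls and a median of 0.03. Rgs2, which dampens signalling of G proteins, had the lowest log2 fold change of the list, in which Cftr had the highest, at -0.18 ± 0.17 (SE). Of the gated channels and exporters 3 of 8 were tested and none was called. Abcc4, an efflux pump that carries cyclic GMP, stood at 2.66, 2.69 and 2.99 in o-anthranilic acid animals, against 2.20, 2.46 and 2.18 in vehicle animals. All o-anthranilic acid arrays were higher, with a log2 fold change of 0.50 ± 0.13 (SE) and a limma adjusted p of 0.478. Its 3 other probes gave 0.48 to 0.62. Cngb1, a gated channel subunit, stood at -0.19 ± 0.28.

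Salt transporters of the tubule, on whose activity uroguanylin and natriuretic peptides act, had 13 of 14 genes tested, 0 calls and a median of -0.04. Slc9a3, the sodium-proton exchanger of the proximal tubule, stood at 0.17 ± 0.27 (SE), and its other probes at 0.03 and 0.06. Scnn1a, a subunit of the epithelial sodium channel, had the lowest log2 fold change of the list, -0.20 ± 0.17. Slc26a4, pendrin, and Atp1b1, a sodium pump subunit, were lower on all o-anthranilic acid arrays, at -0.18 ± 0.08 and -0.11 ± 0.07, with limma adjusted p of 0.604 and 0.703. Of the transcription factors known for guanylin and Gucy2c genes in other settings, 4 of 5 were tested and 0 were called. Cdx2, the intestinal factor, had the lowest log2 fold change of the list, -0.31 ± 0.28 (SE).

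**Figure D3:**
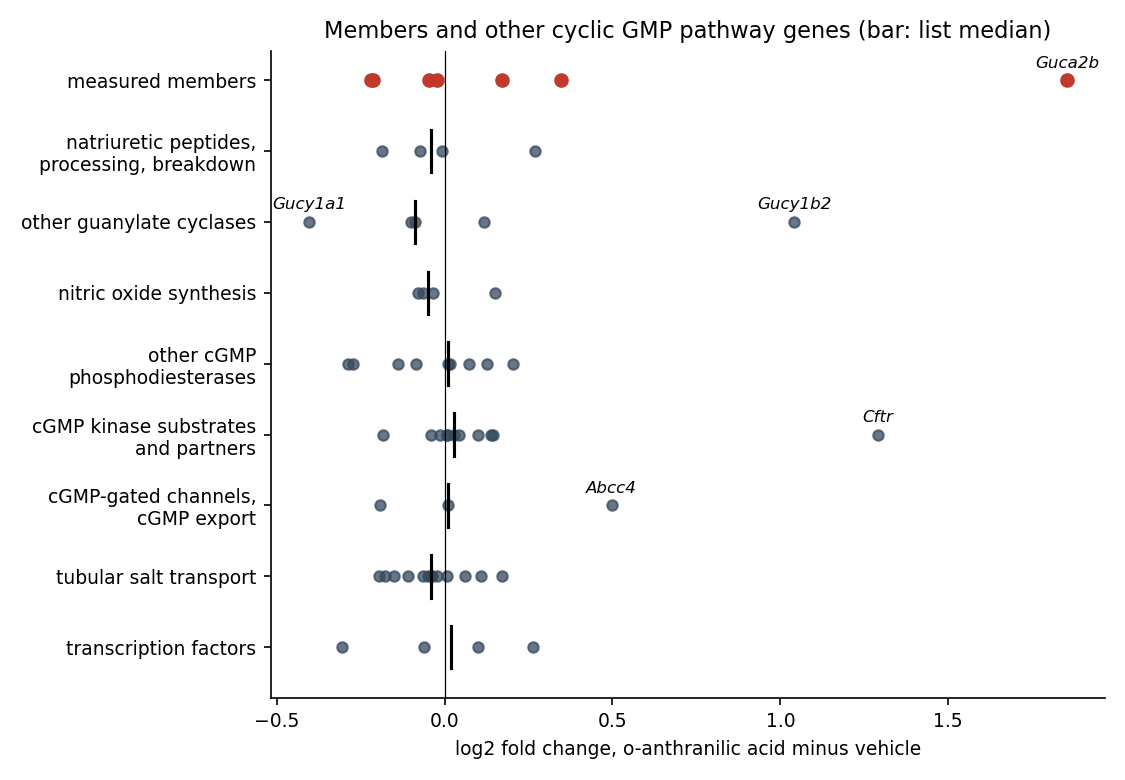
Log2 fold change of o-anthranilic acid over vehicle, 1 point per gene, for the 7 measured members (red, top row) and for 53 other genes of cyclic GMP signalling in 8 lists (dark blue), with the list median as a black bar. List medians lie between -0.09 and 0.03, and Guca2b, at 1.85, stands to the right of every other point, Cftr at 1.29 and Gucy1b2 at 1.04 included.

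The genes around Guca2b were given to show whether they moved with it. Of the 10 nearest named protein-coding genes in the RefSeq order, 5 on each side, 7 were tested. These 7 include Guca2a, a member, for which the comparison is a description, so nothing is read from its place in the counts. limma called 0 of the 7 after Benjamini-Hochberg adjustment, against 0% of all features. At an unadjusted p under 0.05 there was 1, Hivep3, against 8.32% of all features. The log2 fold changes of the 7 lay between -0.51 and 0.20. The next gene on one side is Guca2a. The next on the other is Hivep3, a zinc finger factor, with -0.51 ± 0.14 (SE, limma adjusted p 0.486), lower on all o-anthranilic acid arrays, whereas its other probe stood at 0.04. Foxj3, a forkhead factor, stood at 0.20 ± 0.25, and Zmynd12, Ctps1, Ppcs and Scmh1 at -0.14, -0.06, -0.03 and -0.03. Rimkla, Edn2 and Foxo6 had no named probe.

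**Figure D4:**
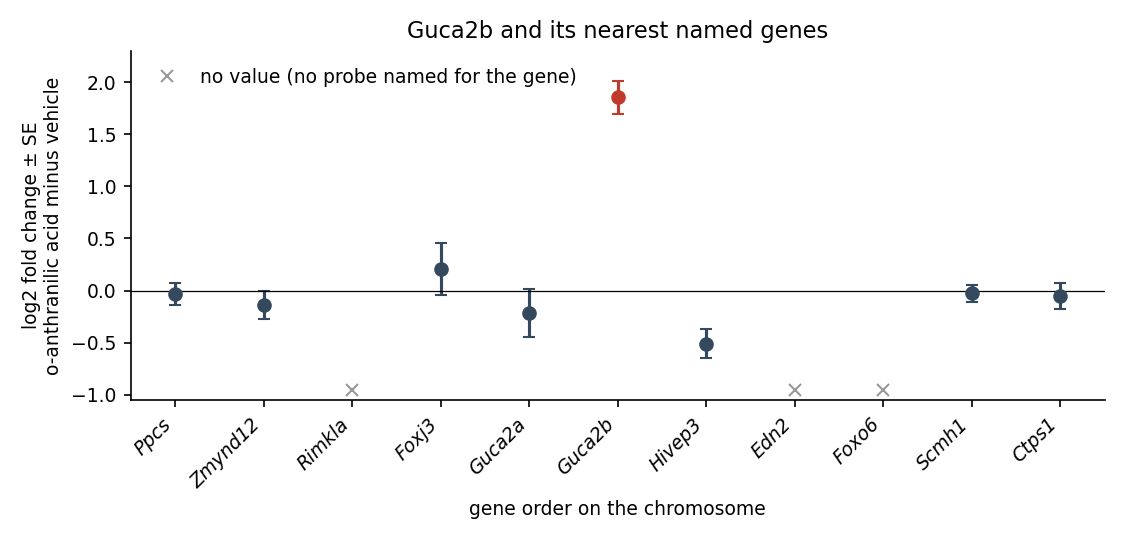
Log2 fold change ± SE of o-anthranilic acid over vehicle for Guca2b (red) and the nearest named genes on both sides (dark blue), in chromosome order and not to scale of distance. Crosses on the bottom line mark genes without a named probe. Guca2b stands at 1.85, and its neighbours lie between -0.51 and 0.20.

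Genes whose signal followed that of Guca2b over the 6 arrays were listed by Pearson correlation, as a description, since a difference between the groups alone raises it. Of 11906 named genes compared, 35 had a correlation above 0.95. Among the 5 highest were Stn1 at 0.990, Haus8 at 0.988, Prpf4 at 0.984 and Mettl23 at 0.978, over 6 arrays that share 2 groups. Their log2 fold changes were 0.21, 0.48, 0.17 and 0.22, all smaller than that of Guca2b. With the group means removed the correlations were 0.927, 0.837, 0.988 and 0.171. In Stn1, Haus8 and Prpf4, as in Guca2b, o-anthranilic acid replicate 2, the array alone on its slide, was the highest of the 6 arrays. Since the genes were picked by their correlation over these same arrays, nothing is read from these values. Another probe of Prpf4 stood at -0.06. Within the members the correlation of these deviations was -0.828 between Guca2b and Guca2a, which rests on o-anthranilic acid replicate 2.

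Markers of cell types are given beside the Guca2b result as levels summed over a list, in multiples of the 75th percentile of the array. For the straight proximal tubule, with 4 of 4 markers above background, the sum was 67 to 143 on the o-anthranilic acid arrays and 34.7 to 90 on the vehicle arrays. For erythrocytes, with 3 of 3 markers on the array, it was 601 to 736 and 470 to 624. For inner medulla and papilla, with 4 of 5 and Krt20 below background, it was 1.02 to 1.87 and 0.865 to 1.04. For intestinal epithelium, where guanylin peptides are best known, it was 3.21 to 3.46 and 3.35 to 3.92, with 3 of 5 markers on the array above background and Fabp2 and Fabp6 below it. For principal cells the sum was 104 to 127 and 121 to 144, for intercalated cells 140 to 174 and 159 to 181, and for the early proximal tubule 632 to 670 and 632 to 657. Each sum follows its brightest genes: Vil1, a brush-border protein that the proximal tubule also makes, gave 88.9% to 93.4% of the intestinal sum, and Slc7a13 gave 56% to 93.9% of the straight tubule sum. The ranges of these sums overlapped between the groups, but those of single markers did not always. Of the 51 markers tested over all lists, limma with Benjamini-Hochberg adjustment called 0, and 5 had an unadjusted p under 0.05, against 8.32% of all features. On every o-anthranilic acid array 3 were higher, as Guca2b was, and 3 were lower, against 6.51% and 8.13% of all features, and these 6 were picked for naming after their values were seen. The higher ones were Alas2, the heme synthesis enzyme of red cell precursors, at 0.62 ± 0.16 (SE), Aqp4, a water channel of the collecting duct, at 0.52 ± 0.18, and Pdgfrb, a receptor of mesangium and pericytes. The lower ones were Aqp2, the vasopressin-regulated water channel, Egf, a growth factor of the distal nephron, and Slc26a4. Alas2 stood at 0.51, 0.95 and 0.93 in o-anthranilic acid animals, against -0.03, 0.20 and 0.37 in vehicle animals. Aqp4 stood at -0.49, -0.35 and 0.14 in o-anthranilic acid animals, against -0.92, -0.72 and -0.62 in vehicle animals. Its 4 other probes disagreed, with log2 fold changes from -0.20 to 0.55. The part of these cell types in the Guca2b difference was not tested.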

How the data were processed

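Renal cortex RNA of 6 rats was hybridised to 6 single-colour Agilent arrays. Scanner files as deposited give the brightness of each spot, an intensity on a linear scale that was background-subtracted and detrended within the array by Agilent Feature Extraction, version 10.7 per the submitters' processing notes. A further table deposited by the authors gives a ratio. Set against the scanner values, it equals the processed signal divided by its 75th percentile on that array, linear and with no centring of genes. Its column medians were 0.104 to 0.107. Its columns matched scanner files of the same group under other replicate numbers, and replicates are named here by scanner file.

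Of 62976 spots, 61657 were non-control probes. 84 for RNA controls and 47 with outlier flags were left out, and none was saturated. 27435 of 61526 probes were named through RefSeq accessions in the RefSeq genes of GRCr8, while the array design is of build rn4, per the file headers. Log2 signals had each array's 75th percentile subtracted. A probe was kept if 3 or more of the 6 arrays read it well above background. Where a gene had several, the brightest on average stood for it, and the groups were compared by limma, version 3.58.1 (R 4.3.3, data.table version 1.17.8, jsonlite 2.0.0), using lmFit, eBayes and a threshold of 0.05 after Benjamini-Hochberg adjustment. Standard errors of members other than Guca2b, and of its other probe, come from the same model over all 61526 probes. limma was also run on simulated data with independent normal noise. That run held no slide or row effects, so it does not bear on them. The number of arrays limits precision, and the median standard error was 0.113. Members and lists were chosen with earlier results of these data known. Named were all members, the highest and lowest of each role list and 8 fixed genes, the neighbours of Guca2b and the 5 genes most correlated with it. Some genes that this rule names are not reported here. Promoter windows were found for 6 of 9 members, and motifs were searched in 250 bases before the start. Alternatives were other background corrections (normexp on the median spot and background signals, with an offset of 50), scalings, filters, probe summaries, blocks and each array left out.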

Additional observations from a re-analysis of the deposited data

How the results depend on the processing

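The log2 fold change of Guca2b stayed between 1.68 and 1.85 over 12 other settings, and between 1.68 and 1.96 without 1 array. With the replicate block it was 1.85, and limma then called 0 features and 0 of the 53 tested pathway genes, as it did without that block. The sample labels give replicate numbers and do not say that these pair the animals. Deviations of same-numbered samples from their group means correlated at 0.0234, -0.0437 and -0.0207. Such values show no shared deviation over all features and do not decide whether the animals were paired. The number of features called by limma was 5 with normexp background correction, 1 with a filter of all 6 arrays, 2 when the probes of a gene were averaged, 5 with a variance trend and robust fit, and 3 with the slide as a block or on slide 1 alone, which both leave out o-anthranilic acid replicate 2. Without 1 array it ranged from 0 to 3. The cyclic GMP pathway genes outside the members had 0 calls under every setting run. No setting called more than 5 features in all, so this is not a result about the pathway. Npr3 stood at -0.33 with the mean of its probes and at -0.44 with its other probe, and Pde5a at 0.19 after normexp, a value that dim signal limits. Among the members 3 small values changed sign: Prkg2 (-0.05) stood at 0.0468 after normexp and 0.0476 on slide 1, Npr1 (-0.02) at 0.00352 and Guca2a (-0.21) at 0.0373 on slide 1. Without 1 array they ranged from -0.183 to 0.0476 for Prkg2, from -0.0813 to 0.0123 for Npr1 and from -0.34 to 0.0373 for Guca2a. None of the other genes whose sign changed was called. Pde1a stood at -0.0236 and Ppcs at 0.0047 after normexp. With another probe Pde10a stood at -0.19, Hivep3 at 0.0396, Itpr1 at -0.018, Ctps1 at 0.142 and Prpf4 at -0.0606. On slide 1 Cngb1 stood at 0.0564, Pde3b at 0.108, Pde1a at -0.00067, Pde9a at -0.0237 and Foxj3 at -0.0074. Without 1 array the ranges were -0.437 to 0.0564 for Cngb1, -0.532 to 0.108 for Pde3b, -0.0468 to 0.11 for Pde1a, -0.0237 to 0.229 for Pde9a, -0.0074 to 0.463 for Foxj3, -0.147 to 0.00589 for Nos2, -0.0581 to 0.366 for Slc9a3, -0.104 to 0.0464 for Ppcs, -0.0575 to 0.0236 for Scmh1, -0.131 to 0.0624 for Ctps1 and -0.10 to 0.61 for Mme. The cause of these changes was not tested.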
